A study of Mus musculus with 10 samples.

Results

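Prostaglandins are made from arachidonic acid, and 7 mouse genes named for their part in making or clearing them were followed here in tuft and non-tuft epithelial cells of the injured pancreas. The 7 genes are Pla2g4a, Ptgs1, Ptgs2, Hpgds, Ptges, Hpgd and Cyp4f14. They were chosen by symbol with earlier results of these data known, and 6 of the 7 were among the 12160 genes of the table. Ptges, which encodes the inducible microsomal prostaglandin E synthase, was not listed, and its level is not analysed here.

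Wild-type male CD-1 mice received 4 cycles of 250 µg/kg caerulein, a cholecystokinin analog whose repeated injection injures the exocrine pancreas. Tuft cells were sorted as Cd45-neg; EpCAM+; Siglec f+ cells and non-tuft epithelial cells as Cd45-neg; EpCAM+; Siglec f-neg cells, and each group had 5 libraries of 100 cells. Every library came from an injured pancreas, so no uninjured tissue stands beside them, and no age is given. Both populations were taken from 5 mice, but the labels do not say that libraries with the same number share a mouse, and the strain field reads Mixed.

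The values are log2(RPKM + 1), where RPKM counts the reads of a gene per kilobase of its length and per unit of sequencing depth, after quantile normalization across the libraries. A difference of 1 on this scale is close to a doubling for well-expressed genes and understates the change of low ones. Read counts were not used, so the depth behind each value is unknown. The lowest value of a library, its floor, was 0 except in non-tuft library 2, where it was 0.17. The floor held 1442 to 3753 of the listed genes, the fewest in non-tuft library 3 and the most in non-tuft library 2.

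In textbook outline, a phospholipase A2 frees arachidonic acid from membrane lipids, a cyclooxygenase turns it into the unstable prostaglandin H2, and a terminal synthase converts that into a particular prostaglandin. Hematopoietic prostaglandin D synthase, encoded by Hpgds, makes prostaglandin D2, a mediator best known from mast cells and T helper type 2 cells. Prostaglandins act close to where they are made, through G protein-coupled receptors, and are oxidized and reduced to inactive products. Tuft cells of other epithelia are known to make eicosanoids.

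Tuft libraries held higher levels of the phospholipase, both cyclooxygenases and the prostaglandin D synthase. Of the 6 listed genes, 5 were called higher in tuft libraries, namely Hpgds, Pla2g4a, Ptgs1, Ptgs2 and Cyp4f14, and 0 were called lower. A call here is an adjusted p under 0.05 from limma together with a fold change over 4, and 4.32% of all genes tested were called higher and 3.99% lower, 8.31% in either direction. Hpgd, which encodes the enzyme that inactivates prostaglandins, was not called, with a log2 difference of 1.44 ± 0.45 (SE, n = 5 per group). For 4 of the 6 genes (Hpgds, Pla2g4a, Ptgs1 and Ptgs2) the lowest tuft library lay above the highest non-tuft library, against 6.31% of all genes with tuft higher and no overlap, and 5.12% with tuft lower. Since the genes were chosen with earlier results of these data known, these shares give a scale and measure no enrichment. The authors kept only genes whose RPKM varied across samples, so a gene near 0 in one group was listed because it was present in the other. The p-values of such a gene are a description. In sorted bulk samples, a smaller number of expressing cells and less RNA in each cell cannot be told apart.

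**Figure D1:**
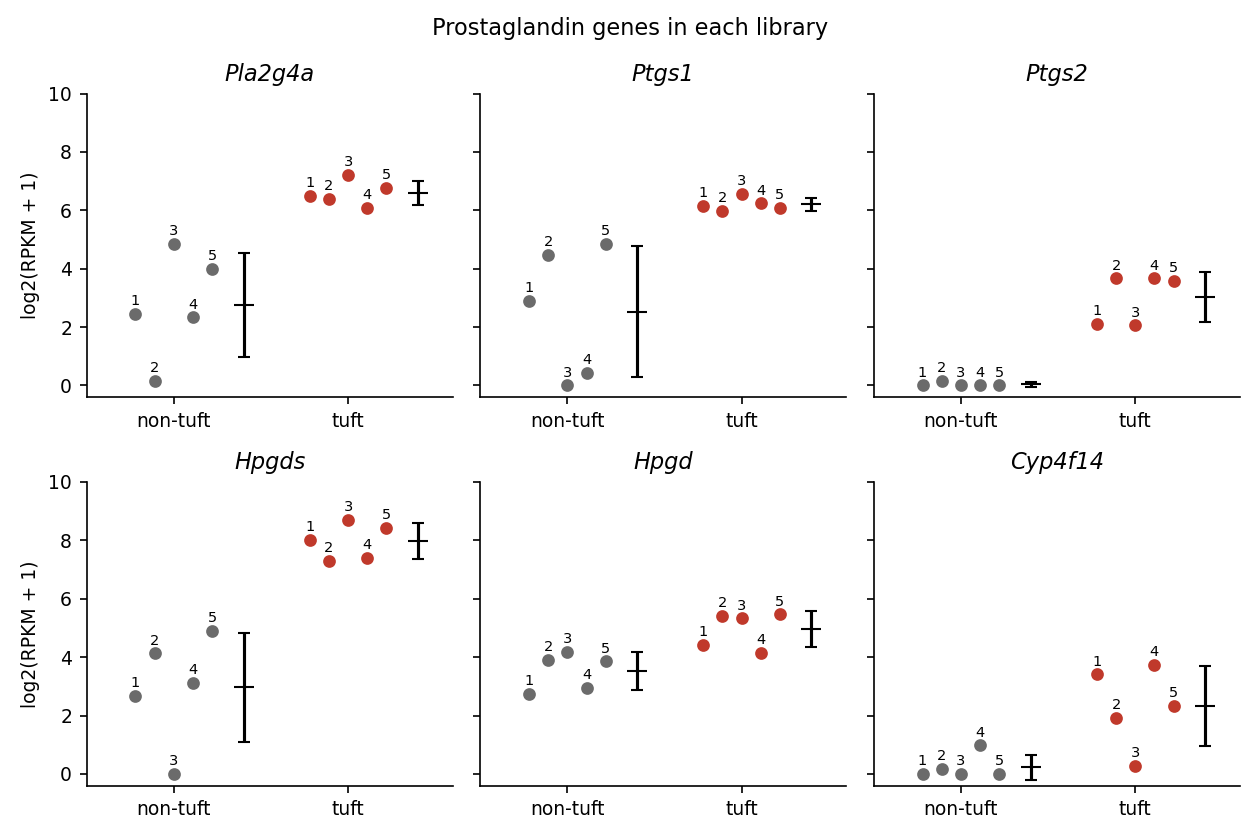
Level of each of the 6 listed prostaglandin genes on the log2(RPKM + 1) scale (vertical axis) in the 5 non-tuft (grey) and 5 tuft (red) libraries, numbered by replicate; the horizontal and vertical black lines give the mean and SD (n = 5). The groups are apart for Pla2g4a, Ptgs1, Ptgs2 and Hpgds and overlap for Hpgd and Cyp4f14, and the non-tuft libraries spread from 0 to 4.91 for Hpgds.

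The sequences around the start sites of the 4 genes without overlap are shown because these genes were higher in the same 5 libraries. Each is the RefSeq window (GRCm38.p6) from 250 bases before to 50 bases after the gene's start site, printed 5′ to 3′ on the strand of the gene, and each of the 4 matched mm9, the build of the data, exactly and at 1 place of its chromosome. The windows lie at chr6:65094675-65094974 (minus strand) for Hpgds, chr1:151946911-151947210 (plus strand) for Ptgs2, chr2:36085696-36085995 (plus strand) for Ptgs1 and chr1:151808371-151808670 (minus strand) for Pla2g4a. Capitals mark matches to 4 short motifs, searched on both strands.
Hpgds: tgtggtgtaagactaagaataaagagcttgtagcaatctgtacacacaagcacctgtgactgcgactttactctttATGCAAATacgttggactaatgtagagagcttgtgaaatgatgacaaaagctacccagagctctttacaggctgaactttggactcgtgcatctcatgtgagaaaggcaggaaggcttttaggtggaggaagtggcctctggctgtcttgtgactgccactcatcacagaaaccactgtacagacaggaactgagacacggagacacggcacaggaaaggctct
Ptgs2: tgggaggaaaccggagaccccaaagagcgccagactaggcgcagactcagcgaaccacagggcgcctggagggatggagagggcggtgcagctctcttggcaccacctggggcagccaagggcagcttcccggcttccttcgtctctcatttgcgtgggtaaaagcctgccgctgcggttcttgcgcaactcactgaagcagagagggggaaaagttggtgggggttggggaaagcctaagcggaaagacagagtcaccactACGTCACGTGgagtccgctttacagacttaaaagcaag
Ptgs1: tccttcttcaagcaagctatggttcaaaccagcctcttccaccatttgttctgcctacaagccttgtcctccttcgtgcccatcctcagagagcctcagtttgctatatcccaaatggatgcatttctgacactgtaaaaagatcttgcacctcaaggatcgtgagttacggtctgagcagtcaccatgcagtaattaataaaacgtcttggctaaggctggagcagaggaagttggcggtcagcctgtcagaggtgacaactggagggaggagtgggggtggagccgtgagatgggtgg
Pla2g4a: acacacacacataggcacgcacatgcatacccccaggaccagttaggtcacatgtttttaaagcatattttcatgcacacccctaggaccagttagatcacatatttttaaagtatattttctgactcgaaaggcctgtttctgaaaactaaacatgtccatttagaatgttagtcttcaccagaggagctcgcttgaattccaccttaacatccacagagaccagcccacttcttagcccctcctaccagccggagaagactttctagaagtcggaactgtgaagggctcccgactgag

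The Hpgds window holds the octamer ATGCAAAT, in capitals, at bases -174 to -167 from the RefSeq start. It is found in 570 of 32851 windows of this length (1.74%). The RefSeq start of Hpgds lies 178 bases inside the gene as the mm9 annotation draws it, so the octamer falls just inside that gene. The octamer is the classical motif of POU factors in general. Pou2f3, the POU factor that tuft cells are known to require, was higher in tuft libraries by 4.33 ± 0.65 (log2 difference ± SE, limma adjusted p = 0.000866). Whether Pou2f3 acts on Hpgds was not tested. The Ptgs2 window holds an E-box, CACGTG, at bases 17 to 22 after its start and the core of the cAMP response element, TGACGT read on the opposite strand, at bases 13 to 18, and the capitals span both since they overlap. This RefSeq start lies 93 bases before the Ptgs2 start of the mm9 annotation, so both motifs are upstream of the latter. These letters are in 7.15% and 7.51% of the windows. The TATA box, TATAAA, is in 13.6% of the windows. The Ptgs1 and Pla2g4a windows held none of the 4 motifs, and of the 6 listed genes the TATA box was matched in the Hpgd window alone. The motifs were chosen after the sequences were seen, and a match describes letters, not a bound site.

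Pla2g4a encodes cytosolic phospholipase A2 alpha, the enzyme best known for freeing arachidonic acid when calcium rises in a stimulated cell. The gene spans chr1:151676748-151808420 on the minus strand of mm9. Its level was 6.49, 6.39, 7.20, 6.09 and 6.76 in tuft libraries 1 to 5, which is 67.1 to 146 RPKM. In non-tuft libraries 1 to 5 it was 2.46, 0.17, 4.84, 2.33 and 4.0, the value of library 2 being its floor. All 5 tuft libraries were thus above every non-tuft library, while the non-tuft libraries ran from the floor to within 1.25 of the lowest tuft library. The mean was 6.59 ± 0.42 in tuft and 2.76 ± 1.79 in non-tuft libraries (SD, n = 5 each). The log2 difference was 3.82 ± 0.72 (SE), a 14.2-fold change on this scale, with an adjusted p of 0.00376 in limma and an exact two-sided permutation p of 0.00794. The latter is the smallest p that 5 against 5 libraries allow.

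Ptgs1 encodes cyclooxygenase-1, the form that most tissues express without stimulation, and lies at chr2:36085946-36107792 on the plus strand. Tuft libraries 1 to 5 held it at 6.16, 5.98, 6.56, 6.24 and 6.07, with an SD of 0.22 that was the smallest of the 6 listed genes. Non-tuft libraries 1 to 5 held it at 2.89, 4.48, 0, 0.42 and 4.85. Libraries 2 and 5 were high among the non-tuft libraries, and libraries 3 and 4 were at or close to 0. The log2 difference was 3.68 ± 0.85 (SE), 12.8-fold, with an adjusted p of 0.0128 in limma and an exact permutation p of 0.00794. With 0.1 in place of 1 added before the logarithm, the difference was 4.71 and the adjusted p 0.0704, so the call was lost there.

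Ptgs2 encodes cyclooxygenase-2, the form classically induced by inflammatory signals, and lies at chr1:151947254-151955140 on the plus strand. Its level in tuft libraries 1 to 5 was 2.10, 3.67, 2.06, 3.67 and 3.58, or 3.17 to 11.7 RPKM. In the non-tuft group Ptgs2 was listed at 0 in libraries 1, 3, 4 and 5 and at the floor of 0.17 in library 2. The transcript was therefore above the floor in all 5 tuft libraries and in 0 non-tuft libraries. The adjusted p was 0.0008 in limma and the exact permutation p 0.00794, and no fold is given because the whole non-tuft group was at the floor. For the same reason Ptgs2 was listed only because tuft libraries held it, so both p-values are a description. With 10 in place of 1 added, the fitted difference was 0.82 (adjusted p = 0.0109), under the fold threshold. Ptgs2os, a noncoding gene on the opposite strand whose nearest end lies 249 bases from Ptgs2 without overlapping it, was at 0.92 in tuft library 1, at 2.69 in tuft library 5 and at the floor in the other 8 libraries (adjusted p = 0.46).

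Within the tuft libraries the constitutive form was the more abundant cyclooxygenase transcript. Ptgs1 exceeded Ptgs2 in 5 of 5 tuft libraries, by 3.19 ± 1.01 on the log2(RPKM + 1) scale (SD, n = 5), or by a ratio of 5.3 to 29.4 in RPKM. Ptgs1 was among the top 5.28% to 8.06% of listed genes in each tuft library, and Ptgs2 among the top 32.9% to 60.3%. Ptgs2 and Pla2g4a are neighbours on chromosome 1, 138833 bases apart with only Ptgs2os annotated between them, while Ptgs1 and Hpgds lie on chromosomes 2 and 6.

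Hpgds had the highest level of the 6 listed genes in every tuft library. It lies at chr6:65067287-65094902 on the minus strand, where its span overlaps the predicted gene Gm17147. Its level was 8.01, 7.31, 8.71, 7.41 and 8.44 in tuft libraries 1 to 5 (157 to 418 RPKM, the top 1.05% to 3.09% of listed genes). In non-tuft libraries 1 to 5 it was 2.68, 4.13, 0, 3.13 and 4.91. Every tuft library was at least 2.39 above the highest non-tuft library. The log2 difference was 5.01 ± 0.76 (SE), 32.1-fold, with a limma adjusted p of 0.000979 and an exact permutation p of 0.00794. The call held under all 19 alternatives, with differences between 3.74 and 6.41 and adjusted p between 0.000106 and 0.0215, and the Pla2g4a call held under the same 19 (2.54 to 4.61, adjusted p 0.000629 to 0.044).

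In the tuft libraries the order of mean levels was Hpgds (7.98), Pla2g4a (6.59), Ptgs1 (6.20), Hpgd (4.96), Ptgs2 (3.02) and Cyp4f14 (2.33). Hpgds exceeded Pla2g4a in 5 of 5 tuft libraries, by 0.92 to 1.68 on the log2 scale, and exceeded Ptgs1 by 1.17 to 2.37. Pla2g4a and Ptgs1 did not separate, since their difference ranged from -0.15 to 0.69. The ranges of Ptgs1 and Hpgd did not overlap, nor did those of Hpgd and Ptgs2, whereas those of Ptgs2 and Cyp4f14 did. In the non-tuft libraries the order was Hpgd (3.53), Hpgds (2.97), Pla2g4a (2.76), Ptgs1 (2.53), Cyp4f14 (0.23) and Ptgs2 (at the floor), and the ranges of the first 4 overlapped.

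Hpgd encodes 15-hydroxyprostaglandin dehydrogenase, which oxidizes and so inactivates prostaglandins, and lies at chr8:58773349-58799843 on the plus strand. Tuft libraries 1 to 5 held it at 4.43, 5.42, 5.33, 4.16 and 5.47, and non-tuft libraries 1 to 5 at 2.74, 3.92, 4.17, 2.95 and 3.86. Only tuft library 4 and non-tuft library 3 overlapped, at 4.16 and 4.17. The log2 difference of 1.44 ± 0.45 (SE), 2.7-fold, gave an adjusted p of 0.0546 in limma and an exact permutation p of 0.0159. The adjusted p fell to 0.0472 without non-tuft library 3 and to 0.0402 without tuft library 4, and the fold stayed under 4 in both. Hpgd was present in all 10 libraries, in contrast to the other 5 listed genes, each of which was at the floor in at least 1 non-tuft library. Hpgds exceeded Hpgd in 5 of 5 tuft libraries, by 1.88 to 3.58 on the log2 scale, and in 3 of 5 non-tuft libraries, where the difference ranged from -4.17 to 1.05.

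Cyp4f14 encodes a cytochrome P450 of the 4f family, whose members hydroxylate leukotriene B4 and other eicosanoids at the omega end, and lies at chr17:33042016-33054023 on the minus strand. Its level was 3.41, 1.92, 0.29, 3.73 and 2.32 in tuft libraries 1 to 5. In non-tuft libraries 1 to 5 it was 0, 0.17, 0.01, 0.98 and 0. The groups overlapped, since tuft library 3 was below non-tuft library 4. The log2 difference was 2.10 ± 0.59 (SE), 4.3-fold, with an adjusted p of 0.0357 in limma and an exact permutation p of 0.0159. With most non-tuft values at or next to the floor, this fold depends on the added constant. With 0.1 in place of 1 added, the difference was 4.15 (limma adjusted p = 0.0326). With 10 added it was 0.57 (limma adjusted p = 0.1), and the call was lost. The call was lost in 8 of the 10 fits with 1 library left out, at adjusted p between 0.0584 and 0.0878, and it held only without non-tuft library 4 (adjusted p = 0.0416) or tuft library 3 (0.00671). Of its 2149 stretches of 50 bases, the read length, 59 (2.75%) also occur in transcripts of other genes, mostly other Cyp4f genes, so part of its level is uncertain. The same count was 0 for Pla2g4a, Ptgs1, Ptgs2 and Hpgd and 1 of 3427 for Hpgds.

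**Figure D2:**
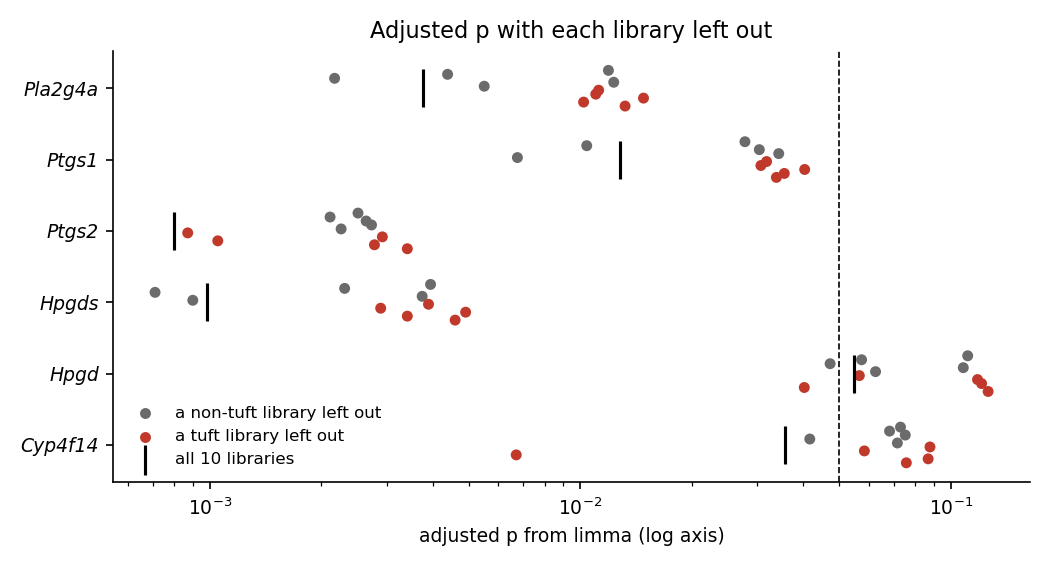
Adjusted p from limma over all 12160 genes (horizontal log axis) for each listed prostaglandin gene with 1 library left out; grey points leave out a non-tuft library, red points a tuft library, the black tick is the fit on all 10 libraries and the dashed line is 0.05. Pla2g4a, Ptgs1, Ptgs2 and Hpgds stay left of the line in every fit, while 8 of 10 points lie right of it for Cyp4f14 and also for Hpgd.

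The spread between libraries differed by gene. The SD among non-tuft libraries was 2.25 for Ptgs1, 1.87 for Hpgds and 1.79 for Pla2g4a, against 0.22, 0.62 and 0.42 among tuft libraries. The reverse held for Ptgs2 (0.08 against 0.85) and Cyp4f14 (0.42 against 1.37), both near the floor in non-tuft libraries, and for Hpgd the SDs were 0.64 and 0.62. To describe the non-tuft libraries, the RPKM of each gene in a non-tuft library was expressed as a percent of its mean RPKM in the 5 tuft libraries, beside the same percent for 6 tuft cell marker genes (Dclk1, Pou2f3, Trpm5, Avil, Gfi1b and Il17rb). These 6 were kept from a list of 10 tuft markers. Chat, Gnat3 and Plcb2 were left out because their tuft means were below 4, and Sox9 was left out too.

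The marker median was 2.3%, 8.96%, 0%, 0% and 9.68% in non-tuft libraries 1 to 5. Trpm5, Avil and Pou2f3 were above the floor in libraries 1, 2 and 5 and at 0 in libraries 3 and 4. Dclk1 was above the floor in library 3 as well, at 0.183%. Gfi1b and Il17rb were above the floor in library 5 only, at 10.7% and 11.2%. Ptgs1 was at 8.74%, 29.0%, 0%, 0.454% and 37.9% in the same libraries. It was thus lowest in the libraries with the lowest marker medians, and above the highest of the 6 markers in libraries 2, 4 and 5. The comparison with the highest marker holds for these 6 only. Of those left out, Chat was at 3.21 RPKM in library 2, against 2.35 to 13.5 in tuft libraries. Gnat3 was at 6.54 RPKM in library 5, against 7.65 to 30.5. Chat in library 5 and Gnat3 in library 2 were at the floor. Plcb2 was at 3.19 RPKM in library 2 and 1.57 in library 5, against 9.61 to 17.7. Sox9 was at 89.3 to 208 RPKM in the non-tuft and 174 to 276 in the tuft libraries. Hpgds was at 2.01%, 6.11%, 0%, 2.88% and 10.8%, inside the marker range in libraries 1, 2, 3 and 5 and above it in library 4. Pla2g4a went another way, at 4.58%, 0%, 28.1%, 4.10% and 15.3%. Its highest percent was in library 3, where the 6 markers reached at most 0.183%. Library 3 had the fewest genes at the floor, and library 2, where Pla2g4a was at 0%, had the most. Hpgd lay between 17.6% and 52.4%, above each of the 6 markers in each library.

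Without non-tuft libraries 1, 2 and 5, an alternative added after the data were seen, the differences were 6.0 for Ptgs1 (adjusted p = 0.000166), 6.41 for Hpgds (0.00726) and 3.0 for Pla2g4a (0.044), all from limma. The adjusted p of Ptgs2 was then 0.0301. The call of Cyp4f14 was lost (1.84, adjusted p = 0.306). The 2 libraries kept are those with Ptgs1 at 0 and 0.42, so the larger Ptgs1 difference follows from the choice of libraries and is given as a description. Whether tuft cells in the non-tuft sort account for part of the non-tuft levels was not tested. As depth is unknown, a marker at 0 does not show that tuft cell RNA was absent.

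**Figure D3:**
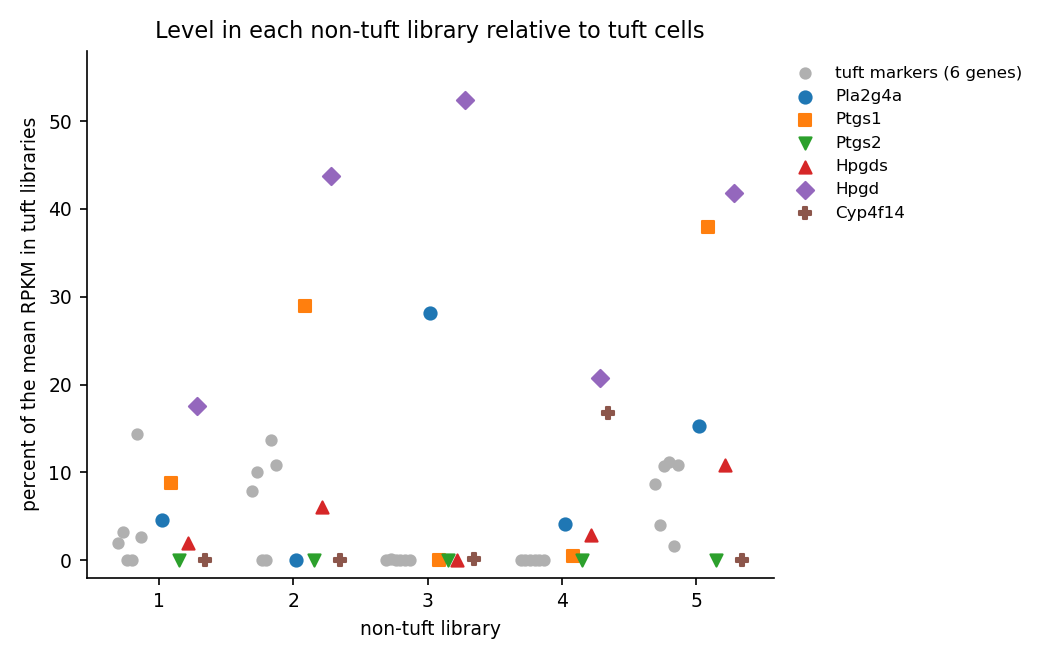
RPKM of the 6 listed prostaglandin genes (coloured symbols) and of 6 tuft cell markers (grey) in each non-tuft library (horizontal axis), as a percent of the mean RPKM of the same gene in the 5 tuft libraries (vertical axis). Markers sit at or near 0% in libraries 3 and 4, where Pla2g4a stands at 28.1% and 4.10% and Ptgs1 at 0% and 0.454%.

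The groups matched their labels in Siglecf, Epcam and most tuft markers. Ptprc, the gene of the sorted antigen Cd45, was present in tuft libraries although the sort excluded Cd45, as given below. Siglecf, which encodes the sorted lectin, was at 5.62 to 7.52 in tuft libraries and at 0 in 4 of 5 non-tuft libraries. Epcam was at 7.44 or more in all 10. It was higher in tuft libraries by 1.72 ± 0.48 (SE, limma adjusted p = 0.0329), under the fold threshold. Both genes encode antigens of the sort, so their levels are no separate check of the labels. Of 10 tuft markers 9 were called higher, with mean levels of 5.91 to 6.38 in tuft and 0.77 to 3.23 in non-tuft libraries. Acinar markers averaged 10.59 to 11.93 in the non-tuft and 4.20 to 9.07 in the tuft libraries, ductal markers 4.43 to 6.59 and 3.91 to 4.86, and islet markers 0.36 to 8.24 and 0.08 to 1.52. Non-tuft here is thus a mixture of epithelial and islet transcripts whose makeup differed between libraries.

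Because Hpgds and the cyclooxygenases are also known from blood cells, markers of these cells were read beside them. None of 7 eosinophil markers was listed, and of 8 mast cell markers only Kit was, called higher in tuft libraries with overlap (3.36 to 5.41 against 1.33 to 3.63 in non-tuft libraries, adjusted p = 0.03). Of 8 macrophage markers 6 were listed and 0 called, at mean levels of 0.21 to 3.12 in tuft and 0.85 to 1.82 in non-tuft libraries. The 3.12 was that of tuft library 3 alone, where Lyz2 was at 4.92, C1qa at 2.81 and Csf1r at 2.69, and the other tuft libraries had means of 0.21 to 1.08. Tuft library 3 also had the highest Hpgds, Pla2g4a and Ptgs1, and the part of macrophage RNA in these values was not tested. Without tuft library 3 the differences were 4.82 for Hpgds (adjusted p = 0.0049), 3.67 for Pla2g4a (0.0148) and 3.59 for Ptgs1 (0.0403). Of 5 platelet markers 2 were listed and 0 called (0.87 to 3.27 against 0.19 to 2.39). Of 7 leukocyte markers 4 were listed, with mean levels of 0.72 to 2.89 and 0.17 to 2.93, and 1 was called. This was Ptprc, which encodes Cd45 and so the antigen the sort excluded, at 2.74 to 4.33 in tuft and 0 to 1.93 in non-tuft libraries (adjusted p = 0.00292). Its part in the Hpgds and Ptgs1 levels was not tested. Fibroblast and endothelial markers were high in library 5 of both groups, reaching 3.95 and 5.83, and the calls of Pla2g4a, Ptgs1, Ptgs2 and Hpgds held with both of these libraries removed, at adjusted p between 0.00484 and 0.0217. Of 10 listed dissociation response genes, a set to which Ptgs2 is related as an immediate early gene, 1 was called, lower in tuft libraries (mean levels 2.70 to 5.32 against 4.30 to 5.70).

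To place these genes in their pathway, 68 genes of prostaglandin release, synthesis, breakdown, transport and reception were read from the same fit, the 7 above included. Of these, 40 were listed, 8 were called higher (20.0%), 2 were called lower (5.0%) and 30 were not called. With the 7 genes set aside, 34 were listed, and 3 were called higher (8.82%) and 2 lower (5.88%), beside 4.32% and 3.99% of all genes. The median log2 difference of these 34 was 0.31, against 0.02 over all listed genes. At an adjusted p under 0.05 without a fold threshold, 3 further genes of the pathway passed, namely Ptgr2, Slco2a1 and Cyp4f15, where 6.19% of all genes passed as higher and 5.55% as lower.

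Among 13 listed genes of arachidonate release, Pla2g4a, Pla2g16 and Mgll were called higher and Pla2g1b lower. Pla2g16, a phospholipase of the HRAS-like suppressor family, had the highest tuft level of the pathway, 9.21 ± 0.07 against 6.85 ± 0.32 (SD, n = 5 each), and rose by 2.36 ± 0.34 (SE, adjusted p = 0.000672). Mgll encodes monoacylglycerol lipase, which can free arachidonic acid from 2-arachidonoylglycerol, and its mean was 6.93 ± 0.44 against 4.56 ± 1.77 with overlapping groups (adjusted p = 0.0479). That call was lost in 13 of 19 alternatives, with adjusted p up to 0.26, and without 1 library it held only when non-tuft library 1 (0.0291) or 4 (0.0131) was left out. Pla2g1b encodes the secreted phospholipase of pancreatic juice, an acinar product, and was at 9.36 ± 1.38 in non-tuft and 4.59 ± 1.97 in tuft libraries, a difference of -4.77 ± 0.90 (SE, adjusted p = 0.00384). Its 5 tuft values were 6.67, 5.31, 3.34, 5.82 and 1.83, lowest in libraries 3 and 5, which also had the lowest mean of acinar markers. The part of acinar RNA in these values was not tested. With non-tuft libraries 1, 2 and 5 removed, which leaves 2, the difference of Pla2g1b was -3.83 and the adjusted p 0.154.

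Of 7 listed terminal synthases only Hpgds was called. Ptges2 and Ptges3, the other genes named as prostaglandin E synthases, were at 2.43 ± 0.57 and 4.10 ± 0.34 in tuft and at 3.08 ± 0.66 and 4.82 ± 0.21 in non-tuft libraries (adjusted p 0.405 and 0.218). All 5 tuft libraries were below all 5 non-tuft libraries for Ptges3. Ptgds, which encodes the lipocalin-type prostaglandin D synthase and so makes the same product as Hpgds, was listed at 0 in all 5 tuft libraries and at 2.67, 2.26, 1.24, 0 and 1.50 in non-tuft libraries 1 to 5 (adjusted p = 0.0572). The D synthase transcript of the tuft libraries was thus that of Hpgds, with Ptgds at 0. Cbr1, a carbonyl reductase that can act on prostaglandin E2, was at 6.95 ± 0.40 and 6.01 ± 0.50 (adjusted p = 0.157).

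Of 6 genes of breakdown and reduction, Cbr3, a carbonyl reductase related to Cbr1, was called higher. Its mean was 5.53 ± 0.34 in tuft and 2.50 ± 1.95 in non-tuft libraries (difference 3.03 ± 0.76, adjusted p = 0.02). The adjusted p of Cbr3 was 0.0767 with 0.1 in place of 1 added, 0.0535 without non-tuft library 4, 0.058 without tuft library 3 and 0.0526 without tuft library 5. Ptgr2, a prostaglandin reductase, was higher without overlap, at 4.90 ± 0.38 against 3.12 ± 0.81, with an adjusted p of 0.0197 and a fold of 3.43, under the threshold. Without non-tuft library 2 its difference was 2.06 (adjusted p = 0.00694), which passed both thresholds, and without tuft library 3 the adjusted p was 0.0548. Ptgr1, the reductase that also inactivates leukotriene B4, had a mean of 2.49 ± 1.52 in tuft and 4.60 ± 0.54 in non-tuft libraries (adjusted p = 0.0521).

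Of 7 listed omega hydroxylases only Cyp4f14 was called. Cyp4f15 was listed at 0 in all 5 tuft libraries and at 2.39, 0.17, 2.45, 1.47 and 2.39 in non-tuft libraries 1 to 5, with an adjusted p of 0.0262 and a fitted change under the threshold. Without non-tuft library 2 it passed both thresholds (adjusted p = 0.00258), and its adjusted p was above 0.05 in 7 of the 10 fits with 1 library left out. Cyp4f13 had the highest tuft mean of these genes, 3.03 ± 0.46 against 2.31 ± 1.44 (adjusted p = 0.518).

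Neither of the 2 transporter genes was called. Slco2a1, which encodes the prostaglandin uptake transporter, had a mean of 1.77 ± 0.93 in tuft and 0.19 ± 0.34 in non-tuft libraries (adjusted p = 0.0463, fold 2.98), and its adjusted p was above 0.05 in 8 of the 10 fits with 1 library left out. Abcc4, which can export prostaglandins, was at 2.34 ± 0.67 and 2.62 ± 1.17 (adjusted p = 0.808).

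Of 10 receptor genes 4 were listed and only Ptger3 was called. Ptger3, which encodes the EP3 receptor of prostaglandin E2, was listed at 0 in all 5 tuft libraries. In non-tuft libraries 1 to 5 it was at 3.41, 2.13, 3.55, 3.75 and 5.02, present in every library (adjusted p = 0.000404, exact permutation p = 0.00794). Its call held in all 10 fits with 1 library left out, at adjusted p between 0.00018 and 0.00203. With every tuft value at 0, leaving out a tuft library could not change the difference. Ptger3 was also listed only because non-tuft libraries held it, so its p-values are a description. With 10 in place of 1 added, the fitted difference of -1.13 (adjusted p = 0.0114) was under the fold threshold. Ptger1 and Ptger4, receptors of the same prostaglandin, were at 1.29 ± 0.97 and 0.78 ± 1.11 in tuft libraries, and their adjusted p values were 0.337 and 0.617. Ptgfrn, which encodes a negative regulator of the prostaglandin F2 receptor, had the highest tuft mean of the 4, 3.64 ± 0.62 against 3.94 ± 0.39 (adjusted p = 0.69). The prostaglandin D2 receptor genes Ptgdr and Ptgdr2 were not listed.

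**Figure D4:**
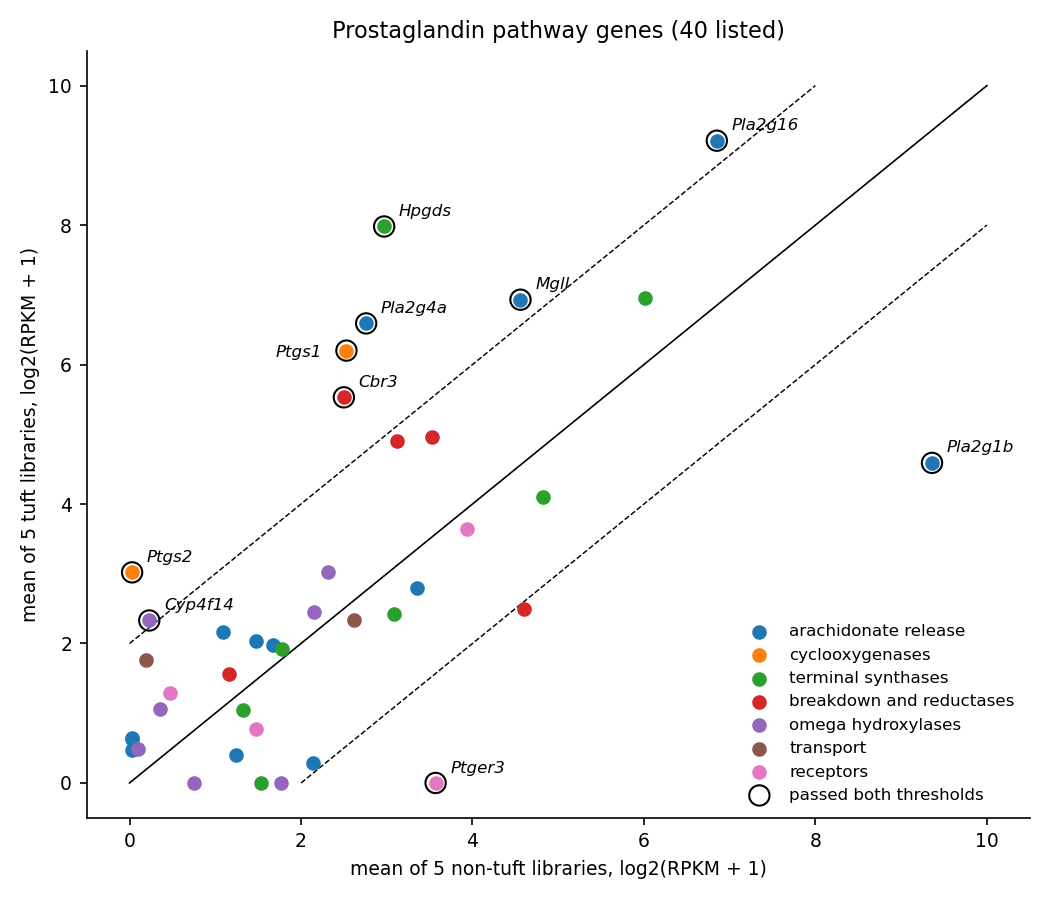
Mean log2(RPKM + 1) of 40 listed prostaglandin pathway genes in the 5 non-tuft (horizontal axis) and 5 tuft libraries (vertical axis), coloured by role, with rings around the 10 genes that passed both thresholds; the solid line marks equal levels and the dashed lines a 4-fold change. Hpgds, Pla2g4a, Ptgs1 and Cbr3 stand above the upper dashed line, while Pla2g1b and Ptger3 are ringed below the lower one.

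The leukotriene branch draws on the same arachidonic acid. Its genes Alox5, Alox5ap and Ltc4s were higher by 5.42 (limma adjusted p = 0.00207), 6.35 (0.000284) and 5.45 (0.000297) on the log2 scale, and Lta4h differed by -0.99 (0.355).

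The listed genes whose pattern over the 10 libraries was closest to each called gene were found by the root mean square difference between values from which each gene's own mean had been subtracted. Closest to Hpgds were Ptpn6 (0.43), Calml4 (0.81) and Matk (0.85), and to Ptgs1 they were Hepacam2 (0.56), Vav1 (0.60) and Inpp5d (0.70). Arhgef28 (0.44), Ano10 (0.51) and Vsig2 (0.70) were closest to Pla2g4a. For Ptgs2 they were Sct (0.44), Edil3 (0.45) and Pparg (0.48), and for Cyp4f14 they were Trim40 (0.40), Tnfrsf25 (0.55) and Slc6a8 (0.59). No gene was among the 3 closest to more than 1 of these 5. The measure includes the difference between the groups, which ran from 2.10 to 5.01 among the 5, so this is a description.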

How the data were processed

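Gene expression was measured by Smart-Seq2 in 10 libraries of 100 sorted cells, 5 tuft and 5 non-tuft, grouped by the sample titles. The authors mapped 50-base single-end reads to mm9 with Hisat2, quantified RPKM with Stringtie and Ballgown, removed genes with low RPKM variance, and deposited quantile-normalized log2 values, 1 column per library. The added constant of 1 was judged from the minimum of 0. The fold ratio, p-value and false discovery rate of the authors' own comparison, also deposited, were not used. No counts were used, so depth and its precision are unknown, and p-values measure the spread between libraries.

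The log2 values were fitted with limma 3.58.1 (lmFit and eBayes, R 4.3.3) without covariates, with Benjamini-Hochberg adjustment over all 12160 genes. Calls needed an adjusted p under 0.05 and a fold over 4. The fit was tested on simulated data. Single genes also had a two-sided exact permutation test, which took all 10 libraries as independent. Other values came from Python 3.11.15 (scipy 1.17.1, pandas 2.3.3, numpy 2.4.6), and figures from matplotlib 3.10.9. Motifs were searched in RefSeq windows, and positions were read from an NCBIM37 (mm9) annotation.

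The members and lists were chosen with earlier results of these data known. Named are all members, called pathway genes or those highest in their role group, the 3 genes closest to each called member, the marker lists, and the leukotriene genes. Ptgr1, Ptgr2, Ptgds, Slco2a1, Cyp4f15, Ptges2, Ptges3, Ptger1, Ptger4, Ptgs2os and single markers were named after their values were seen. Alternatives were a replicate block, adding 0.1 or 10 in place of 1, a filter on low values, ribosomal centring, floors set to 0, trend and robust settings, other fold thresholds and each library left out.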

Additional observations from a re-analysis of the deposited data

Results flagged for a closer look

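In 25 groups of 5 libraries tested for a value far from the rest by Dixon's criterion, 3 stood apart. The chance rate of about 1 in 20 does not apply to the 2 non-tuft cases, where the other libraries lay at or next to the floor and any higher value would have stood apart. Cyp4f14 was at 0.98 in non-tuft library 4, with each other non-tuft library at its floor or at 0.01. Slco2a1, the prostaglandin uptake transporter, was at 0.18 in tuft library 5, against 1.92 to 2.60 in the other tuft libraries. Slco2a1 was also at 0.78 in non-tuft library 4 and at the floor in the other 4 non-tuft libraries.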

How the results depend on the processing

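With 10 added in place of 1, the calls over all genes changed from 525 higher and 485 lower to 162 and 116, the prostaglandin genes called higher from 5 to 3, and the pathway calls from 8 higher and 2 lower to 4 and 1. With 0.1 added, 4 pathway genes were called lower. Centring on 73 ribosomal protein genes moved the median difference of all genes from 0.02 to 0.81 and gave 1259 higher and 227 lower calls, and Hpgd passed both thresholds there (2.22, adjusted p = 0.0149). A mean log2 value of at least 2 left 3 prostaglandin genes called, because Ptgs2 and Cyp4f14 were filtered out. With non-tuft libraries 1, 2 and 5 removed, chosen after seeing the data, 1 pathway gene was called lower. With 1 library left out, 4 to 5 prostaglandin genes were called higher and 0 lower, 5 to 7 pathway genes higher and 2 to 3 lower, and 447 to 533 of all genes higher and 394 to 477 lower. The 5 came without tuft library 5, where Mgll, Cbr3 and Cyp4f14 lost their calls. No result reversed its direction.

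With the replicate number as a block, 5 prostaglandin genes and 7 pathway genes were called higher, 518 genes in all rose and 491 fell, and Mgll lost its call (adjusted p = 0.0609). Same-numbered libraries deviated together with r of 0.062 to 0.24, and 4 of 5 correlated best with their own number, a hint from the data only. Unknown depth limits what a value at the floor can show.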
